A study of Homo sapiens with 4 samples.

Results

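A set of 47 genes that act in the G2 phase of the cell cycle and in mitosis was followed in U251-MG cells, a human glioma line, with and without forced expression of the collagen gene COL8A1. The genes were taken by name from a list of regulators and structural proteins of cell division, and all 47 were found among the 61806 genes counted. The list was meant to leave out the kinesin motor family. One member, CENPE, is nevertheless a kinesin-type motor at the kinetochore, and without it 34 of 46 genes had a log2 fold change below 0 with a median of -0.026, against 35 of 47 and -0.032 with it.

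Total RNA was sequenced from 2 COL8A1 libraries and 2 negative control (NC) libraries. COL8A1 cells had received a lentiviral pCDH-CMV-MCS-EF1-puro vector that carried COL8A1 cDNA, and NC cells had received the negative control vector. Both groups share the U251-MG background, a genotype listed as WT, DMEM with 10% fetal bovine serum, and lentiviral infection. Clones, time after infection, cell density and cell cycle arrest or synchronisation are not named in the labels, and nothing there says that the 2 libraries of each group were grown as different cultures.

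Entry into mitosis is driven by CDK1 bound to cyclin A or B, which CDC25 phosphatases activate and which Aurora and Polo-like kinases help to switch on and to direct. The spindle checkpoint then holds the cell in mitosis until every chromosome is attached, after which the anaphase-promoting complex destroys cyclin B and securin. Most genes of the programme are transcribed together late in the cycle, through NF-Y at CCAAT boxes and through MuvB complexes with B-MYB and FOXM1 at CHR elements, so that their RNA in a culture is commonly read as a measure of how many cells are in G2 or mitosis.

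The promoters of the set were read first, because these elements are what most of the genes are known to share. RefSeq windows from 250 bases before to 50 bases after each start (GRCh38.p14) were found for 40 of the 47 genes; AURKA, BIRC5, BUB3, FOXM1, TPX2, TTK and UBE2C were not matched. The letters CCAAT or, on the other strand, ATTGG stood in the windows of 32 of the 40 genes (80%), against 39.7% of the 27305 genes in the table and 43.5% of the 11357 among them that were tested for expression. The CHR-type letters, TTTGAA (on the other strand TTCAAA) or the palindrome TTCGAA, stood in the windows of 32 of 40 genes (80%), against 19.5% of all genes in the table. Both kinds were present in 27 of 40 (67.5%, against 9.02%), and a CHR-type match lay within 50 bases of a start in 27 of 40 (67.5%, against 6.24%). Matches of the 2 kinds can share at most 1 base, at an end, and CENPE, CKAP2 and TACC3 had neither. A letter match is a description of the window and not a mapped binding site.

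Windows of 150 bases before a start are shown for 6 genes that the expression results return to: CDC25B and AURKB, which had the smallest p-values, CENPA and CKAP2, which stood apart in 1 library, and CCNB2 and PLK1 as the pattern of CCAAT followed by CHR that is typical of the class. They are printed 5′ to 3′ on the strand of the gene, and capitals mark the motif letters in either orientation. Where a gene had more than 1 start, the window with the most motif matches is shown. The windows of CDC25B and AURKB were thus picked for their letters.
CDC25B: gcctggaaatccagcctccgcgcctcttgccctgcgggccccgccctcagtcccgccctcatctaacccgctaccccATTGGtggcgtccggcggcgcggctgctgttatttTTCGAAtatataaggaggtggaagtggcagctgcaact
AURKB: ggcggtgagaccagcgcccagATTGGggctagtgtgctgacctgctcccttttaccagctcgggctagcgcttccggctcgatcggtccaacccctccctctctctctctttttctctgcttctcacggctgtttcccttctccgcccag
CCNB2: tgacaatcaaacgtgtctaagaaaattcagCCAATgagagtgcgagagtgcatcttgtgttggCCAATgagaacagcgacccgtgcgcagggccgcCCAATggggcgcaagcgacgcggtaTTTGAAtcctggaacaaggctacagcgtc
PLK1: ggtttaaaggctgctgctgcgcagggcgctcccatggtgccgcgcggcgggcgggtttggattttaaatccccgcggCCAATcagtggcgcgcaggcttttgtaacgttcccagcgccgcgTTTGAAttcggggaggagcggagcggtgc
CENPA: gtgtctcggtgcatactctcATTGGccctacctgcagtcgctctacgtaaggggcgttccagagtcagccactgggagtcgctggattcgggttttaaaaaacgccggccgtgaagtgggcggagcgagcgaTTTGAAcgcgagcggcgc
CKAP2: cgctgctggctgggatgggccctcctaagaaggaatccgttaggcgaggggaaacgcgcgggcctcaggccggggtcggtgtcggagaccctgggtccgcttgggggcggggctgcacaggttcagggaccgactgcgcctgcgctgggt
The windows lie at chr20:3796160-3796309 (CDC25B, plus strand, before 1 of 4 starts in the table), chr17:8210250-8210399 (AURKB, minus strand, before 1 of 2 starts), chr15:59104996-59105145 (CCNB2, plus strand), chr16:23678739-23678888 (PLK1, plus strand), chr2:26785906-26786055 (CENPA, plus strand) and chr13:52455838-52455987 (CKAP2, plus strand). In CCNB2 the letters CCAAT begin 120, 87 and 54 bases before the start and TTTGAA 29 bases before it. PLK1 has CCAAT at 73 and TTTGAA at 29 bases, and CENPA has ATTGG at 130 and TTTGAA at 18 bases. In CDC25B the letters ATTGG begin at 73 and TTCGAA at 38 bases before the start shown. AURKB has only ATTGG, at 129 bases, and CKAP2 has none of these letters. In GENCODE release 29 the widest span of each of these genes begins farther upstream, so that the windows lie inside it, that of CCNB2 in part.

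The transgene itself was counted at 135 and 81.3 CPM (counts scaled to a TMM-adjusted library size) in the COL8A1 libraries, against 2.51 and 2.43 CPM in the NC libraries, a log2 fold change of 5.45 with a standard error (SE) of 0.315 and an adjusted p of 0.0681 by edgeR's quasi-likelihood test. DESeq2 called it past the threshold of 0.05. Both COL8A1 libraries were far above both NC libraries, and the 2 COL8A1 libraries were themselves unequal. Total counts were 31605164 and 27923796 in the COL8A1 libraries and 30895414 and 33576228 in the NC libraries. The glioma marker VIM was present at 3141 and 2699 CPM in COL8A1 libraries and 2595 and 3042 CPM in NC libraries, whereas OLIG2 was at 0 in all 4 libraries and GFAP at 2.04 and 1.83 CPM in COL8A1 and 0.684 and 0.563 CPM in NC. Of the 10 glioma and astrocyte markers tested, 9 had a log2 fold change above 0, with a median of 0.21. Over all genes tested, 49.8% were below 0. Both COL8A1 libraries lay above both NC libraries in 5 of the markers, against 18.9% of all genes tested. The smallest p among the markers was that of SLC1A3, an astrocyte glutamate transporter, at 52.7 and 59.2 CPM in COL8A1 and 27.2 and 27.2 CPM in NC (edgeR adjusted p = 0.165). By edgeR 0 of the 10 passed an adjusted p of 0.05 and 4 an unadjusted one, and by DESeq2 1 passed the adjusted one. The shares over all genes tested were 0.0117% and 6.07% by edgeR and 0.822% by DESeq2. Of 12 markers of immune, endothelial, epithelial, neuronal and oligodendrocyte cells, 10 stayed under 1 CPM in all 4 libraries, AIF1 and MOG among them at 0, while CDH5 had 78.2 and 60.1 CPM in COL8A1 and 62.8 and 62.5 CPM in NC. The summed level of that list was 80.2 and 62.0 CPM in COL8A1 and 65.7 and 64.4 CPM in NC libraries, and the part of either marker list in the results below was not tested.

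Mitotic genes were expressed in all 4 libraries, and no member passed an adjusted p of 0.05 between COL8A1 and NC cells. By edgeR 0 of 47 members passed, where 0.0117% of all 17030 genes tested did, and by DESeq2 0 of 47, where 0.822% of the same genes did. At an unadjusted p under 0.05 edgeR called 2 members (4.26%), CDC25B higher and AURKB lower, against 6.07% of all genes tested (3.44% higher and 2.63% lower), and DESeq2 called 2 others, CENPA and CKAP2, against 4.83% of the same genes and 5.92% of those counted at least as well as the lowest member. All 47 members passed the filter on low counts, the least counted being CDC25C with 502 and 458 reads in COL8A1 and 565 and 620 reads in NC libraries.

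Members lay close together between the groups. Their median log2 fold change (COL8A1 over NC) was -0.032 with quartiles of -0.11 and -0.0015. All genes tested had a median of 0.0011 and quartiles of -0.14 and 0.17. Genes counted at least as well as the lowest member had a median of -0.0067 and narrower quartiles, of -0.098 and 0.091. The extremes were AURKA at -0.45 and CENPA at 0.65. In 43 of 47 genes the fitted change was within 1.25-fold, and in 31 the whole 95% interval was. The interval reached beyond 1.5-fold in CKAP2, CENPA, BIRC5, AURKA and FOXM1, and beyond 2-fold in the first 4 of these. A p that misses the threshold does not show that levels were equal. In 43 genes the 95% interval, taken gene by gene, lay within 2-fold. These intervals reflect the spread between libraries, and separate cultures are not stated.

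**Figure D1:**
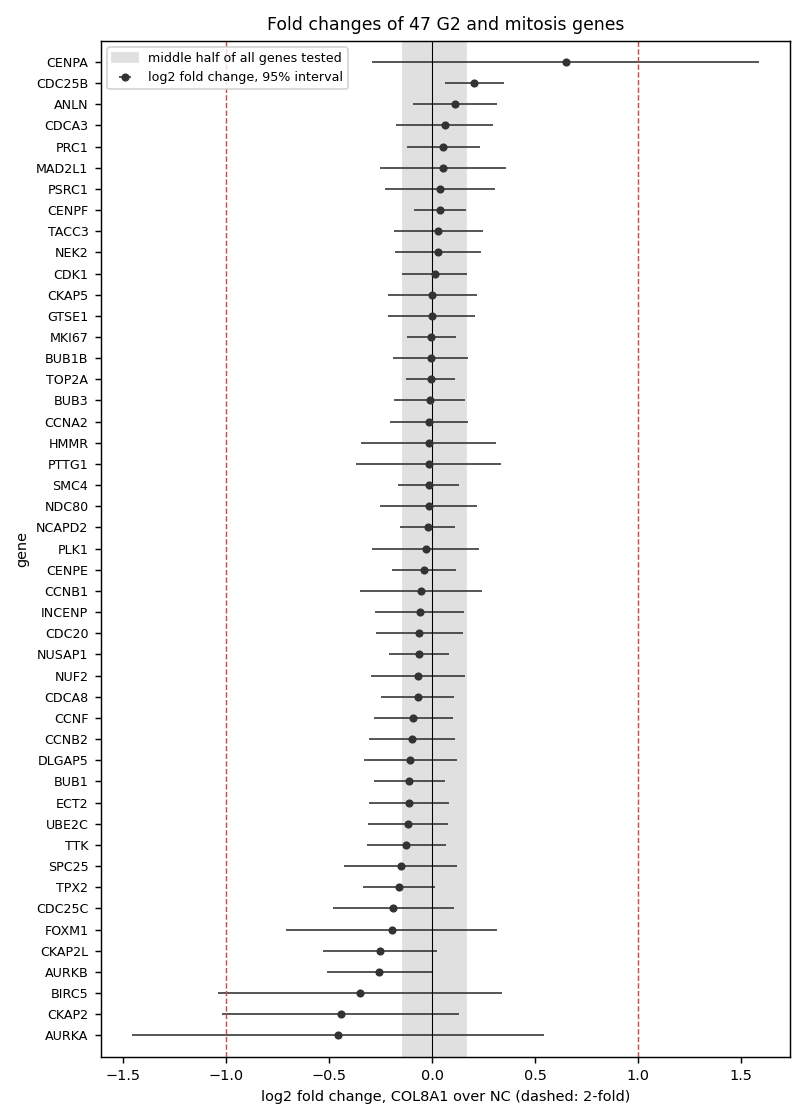
Log2 fold change of each of the 47 genes, COL8A1 over NC (x axis), with its 95% interval from the edgeR fit, genes sorted by fold change (y axis); grey marks the quartiles of all genes tested. Most intervals straddle 0 and are narrow, and those of AURKA, CKAP2, BIRC5 and CENPA are wide and reach past the dashed 2-fold lines.

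The direction was uneven: 35 of 47 members (74.5%) had a log2 fold change below 0, where 49.8% of all genes tested did and 52% of the 8483 genes at or above the lowest member's mean level of 17.3 CPM. Both COL8A1 libraries lay below both NC libraries in 15 members (31.9%), against a background of 18.6% of all genes and 20.8% of the well-counted ones. These were CDC25C, AURKB, CDCA8, BUB1, TTK, UBE2C, CCNF, CENPE, SPC25, CKAP2, CKAP2L, TPX2, NUSAP1, ECT2 and NCAPD2. Both COL8A1 libraries lay above both NC libraries in 3 members (6.38%, against 18.9% of all genes): CDC25B, CENPA and CENPF. The groups overlapped in the remaining 29. These genes share transcription factors and cell cycle timing, so they are not independent observations, and the count carries no p-value.

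The lower readings came mainly from 1 library. COL8A1 replicate 1 was the lowest of the 4 libraries in 27 members (57.4%), against 32.3% of well-counted genes, while COL8A1 replicate 2 was lowest in 11, NC replicate 1 in 3 and NC replicate 2 in 6. COL8A1 replicate 1 lay below both NC libraries in 34 members (72.3%, against 40.7% of well-counted genes), and COL8A1 replicate 2 lay below both in 19 and above both in 19 (40.4% each, against 34% and 36.2%). Over the members, the median log2 difference of COL8A1 replicate 1 was -0.084 from NC replicate 1 and -0.079 from NC replicate 2, whereas that of COL8A1 replicate 2 was -0.0037 and 0.00043. The 2 COL8A1 libraries differed from each other by a median of 0.097, more than the groups did. Without COL8A1 replicate 2 the members' median log2 fold change was -0.11, and without COL8A1 replicate 1 it was -0.021, with 26 of 47 genes below 0.

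**Figure D2:**
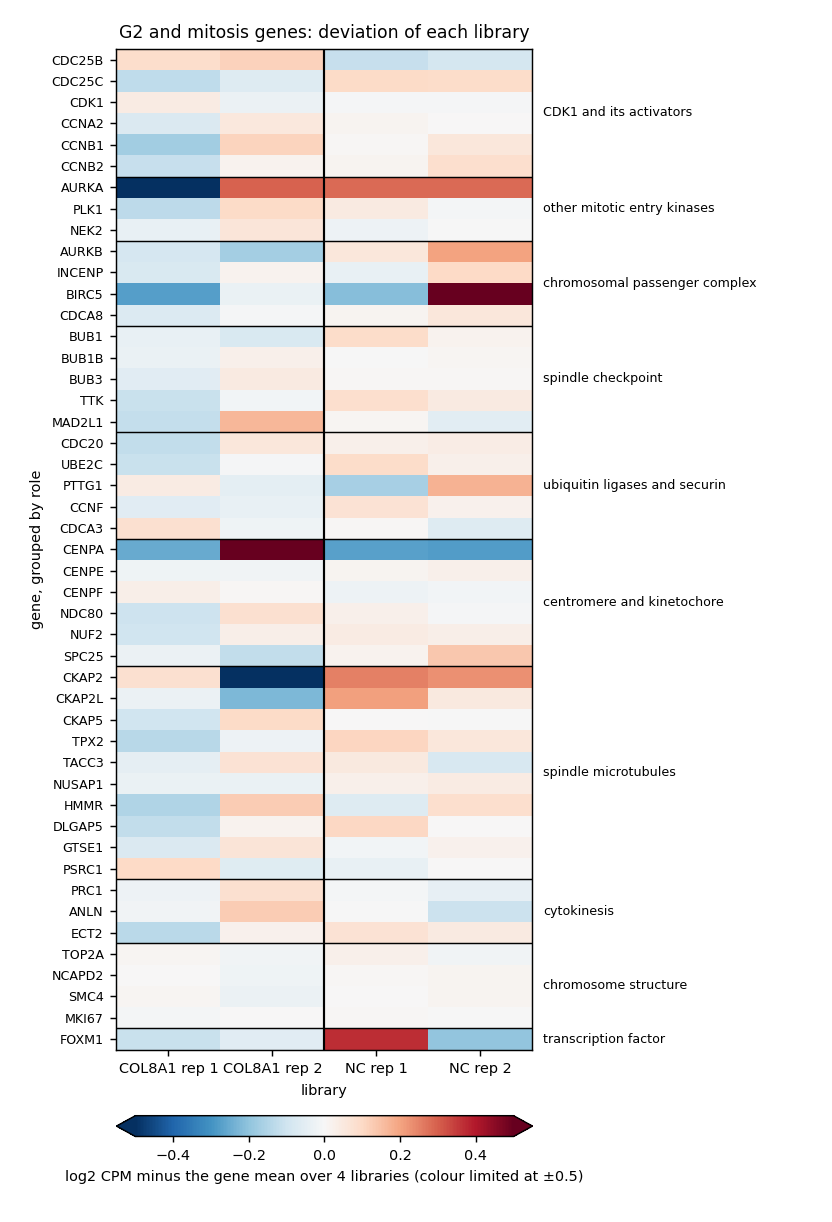
Log2 CPM of each gene (rows, grouped by role) in each library (columns, COL8A1 left of NC), minus the gene's mean over the 4 libraries; red is above and blue below that mean, limited at 0.5. The column of COL8A1 replicate 1 is mostly pale blue, and single dark cells mark AURKA in COL8A1 replicate 1, CENPA and CKAP2 in COL8A1 replicate 2, BIRC5 in NC replicate 2 and FOXM1 in NC replicate 1.

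Summed over the 47 genes, the programme took 11154 and 11680.2 CPM in the COL8A1 libraries and 11772 and 11615 CPM in the NC libraries. The means were 11417 ± 372 CPM in COL8A1 and 11693 ± 111 CPM in NC cells (SD, n = 2 each), a difference of -2.36%, which is smaller than the SD of the COL8A1 libraries. COL8A1 replicate 2 lay between the 2 NC libraries. By role, the difference of the mean sums ran from -12.9% for the entry kinases, where AURKA in COL8A1 replicate 1 is low, to 2.23% for CDK1 and its activators. The sum rests on a few highly counted genes, TOP2A supplying 12.7% of it, MKI67 8.91% and CENPF 7.27%, and 8 genes 49.3%. In bulk RNA a smaller share of cells in G2 or mitosis and less of these RNAs per cell cannot be told apart.

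**Figure D3:**
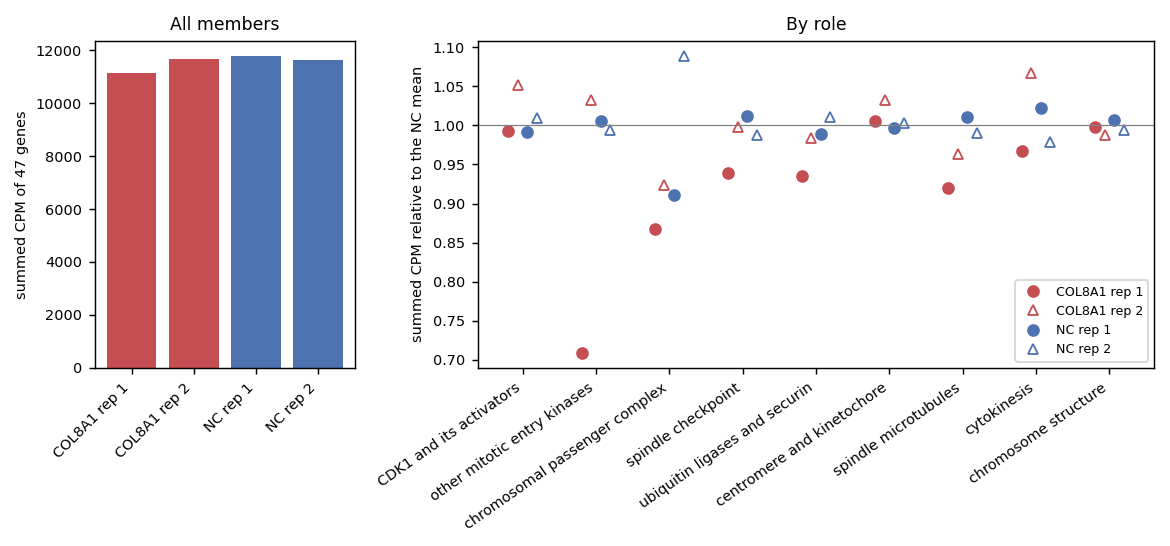
Summed CPM of the 47 genes in each library (left, bars from 0) and summed CPM of each role group relative to the mean of the 2 NC libraries (right, points are libraries, red COL8A1, blue NC). FOXM1, alone in its role, is not drawn on the right. The 4 totals lie between 11154 and 11772 CPM, and of the groups drawn those of mitotic entry kinases and chromosomal passengers spread widest.

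Levels differed far more between the genes than between the groups. Exon length here merges all annotated exons of a gene and can exceed the length of the RNA expressed, so levels per kilobase are approximate. Per kilobase of exon (GENCODE release 29), TOP2A, the topoisomerase that untangles sister chromatids, was the highest at 227 CPM per kb over the 4 libraries, followed by CDC20 at 137, UBE2C at 114, TPX2 at 113 and NUSAP1 at 98.5 CPM per kb. The lowest were CCNF at 13.9, CDCA3 at 10.9 and CDC25C at 5.18 CPM per kb. CDC25B, at 75.2 CPM per kb, thus stood well above its paralogue CDC25C, and CCNB1, at 84.3 CPM per kb, above CCNB2 at 52.98 CPM per kb.

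**Figure D4:**
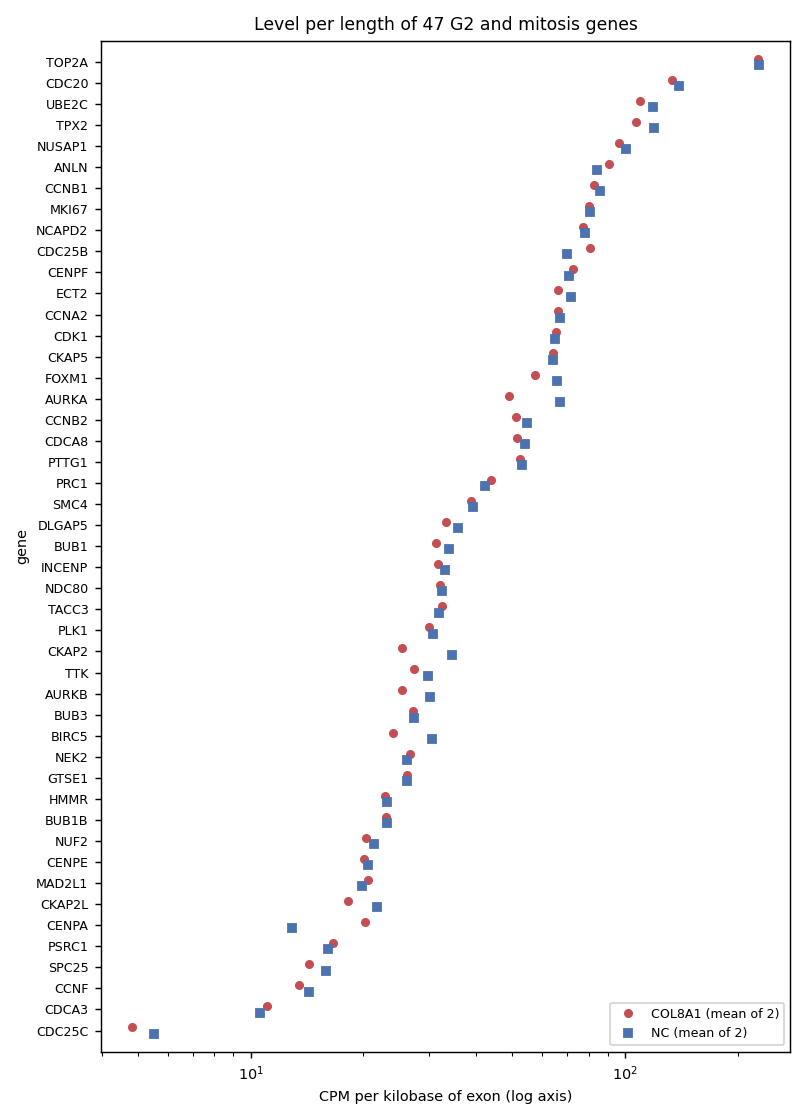
Mean level of each gene in CPM per kilobase of exon (log x axis), genes sorted by their mean, red circles for COL8A1 and blue squares for NC, each the mean of 2 libraries. From TOP2A at 227 down to CDC25C at 5.18 CPM per kb, the paired symbols nearly coincide in most rows and separate in CENPA and AURKA.

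Among CDK1 and its activators, CDC25B, a phosphatase that starts CDK1 activation at the G2/M transition, had the smallest p of the set. It had 344 and 350.3 CPM in COL8A1 libraries, against 298 and 304 CPM in NC libraries. The means were 347 ± 4.28 and 301 ± 4.02 CPM (SD, n = 2 each), a log2 fold change of 0.20 (SE 0.0552, 95% interval 0.06 to 0.35) with an unadjusted p of 0.0158 and an adjusted p of 0.67 by edgeR. The 2 libraries of each group nearly coincide and the groups do not overlap, yet the change is not past the threshold over all genes. CDC25C, the related phosphatase that CDK1 and PLK1 act on, had 15.8 and 16.5 CPM in COL8A1 and 18.4 CPM in both NC libraries. Its log2 fold change was -0.19 (SE 0.111, edgeR adjusted p = 0.835), and here too the groups were apart, in the opposite direction. CDC25C shares 293 exon bases on the opposite strand with FAM53C. That gene had 1691 and 1468 reads in COL8A1 and 1553 and 1910 reads in NC. Whether reads of one were counted for the other was not tested. CDK1 had 263 and 250.98 CPM in COL8A1 and 255 CPM in each NC library, and the cyclins CCNA2, CCNB1 and CCNB2 had log2 fold changes of -0.017, -0.056 and -0.10, with overlapping groups. CCNB1 was lowest in COL8A1 replicate 1, at 190.4 CPM, and highest in COL8A1 replicate 2, at 233 CPM, with the NC libraries between them at 216 and 224 CPM.

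Of the other entry kinases, AURKA, which matures centrosomes and activates PLK1, departed in 1 library. It had 88.8 and 198 CPM in the COL8A1 libraries, against 197 and 196 CPM in the NC libraries. COL8A1 replicate 1 stood alone and the other 3 libraries were alike. The log2 fold change (-0.45, SE 0.38, edgeR adjusted p = 0.869) rests on that library, as it was 0.011 without COL8A1 replicate 1 and -1.15 without COL8A1 replicate 2. The exact 95% Poisson interval of the low library, 85.6 to 92.2 CPM, is far from that of its partner, 193 to 203 CPM, and covers counting error only. PLK1, the Polo-like kinase of entry and exit, had 132 and 154 CPM in COL8A1 and 149 and 143 CPM in NC, and NEK2, a kinase that parts the centrosomes, had 79.8 and 85.4 CPM in COL8A1 and 80.4 and 81.6 CPM in NC. Their groups overlapped.

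The chromosomal passenger complex corrects faulty attachments and guides cytokinesis, and all 4 of its genes had log2 fold changes below 0. AURKB, its kinase, had 58.4 and 55.0 CPM in COL8A1 libraries, against 64.4 and 71.1 CPM in NC libraries. The means of 56.7 ± 2.44 and 67.7 ± 4.77 CPM (SD, n = 2 each) gave a log2 fold change of -0.26 (SE 0.0965, 95% interval -0.51 to -0.0026), an unadjusted p of 0.0485 and an adjusted p of 0.816 by edgeR, and both COL8A1 libraries were below both NC libraries. BIRC5 (survivin), which docks the complex on chromosomes, had 83.7 and 99.1 CPM in COL8A1 and 87.3 and 146 CPM in NC libraries (log2 fold change -0.35, SE 0.262, edgeR adjusted p = 0.859). Only NC replicate 2 was high, and without it the log2 fold change was 0.062. INCENP, the scaffold, had 137 and 146 CPM in COL8A1 and 141 and 155 CPM in NC (log2 fold change -0.061, SE 0.0823, edgeR adjusted p = 0.919), with overlapping groups. CDCA8 (borealin) had 125 and 130.2 CPM in COL8A1 and 132 and 136 CPM in NC, a gap smaller than the spread within each group.

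In the spindle checkpoint, the kinases BUB1 and TTK (MPS1) lay lower in both COL8A1 libraries without passing the test. BUB1 had 191 and 186 CPM in COL8A1 and 209 and 199 CPM in NC (log2 fold change -0.11, SE 0.0647, edgeR adjusted p = 0.835). TTK had 121 and 129.6 CPM in COL8A1 and 139 and 135 CPM in NC (log2 fold change -0.12, SE 0.0721, edgeR adjusted p = 0.835). In neither gene did the groups overlap, and the gap between them was smaller than the wider of the within-group spreads. BUB3, the adaptor that brings BUB1 and BUB1B to kinetochores and the gene of this group with the most CPM, had 217 and 233 CPM in COL8A1 and 227 CPM in each NC library (log2 fold change -0.013, SE 0.0659, edgeR adjusted p = 0.986). BUB1B and MAD2L1, which hold back CDC20, had log2 fold changes of -0.0078 and 0.052 and overlapping groups.

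Of the 5 genes of ubiquitin ligases and securin, 4 had log2 fold changes below 0 and 1 above. CDC20, the activator of the anaphase-promoting complex, had 256 and 289 CPM in COL8A1 and 283 and 286 CPM in NC (log2 fold change -0.062, SE 0.0806, edgeR adjusted p = 0.913), low in COL8A1 replicate 1 alone. UBE2C, the ubiquitin-conjugating enzyme of the complex, had 136 and 146 CPM in COL8A1 and 156 and 149.6 CPM in NC (log2 fold change -0.12, SE 0.0735, edgeR adjusted p = 0.847), without overlap. Securin, PTTG1, had 109 and 102 CPM in COL8A1 and 94.5 and 119.7 CPM in NC, the NC libraries lying on either side of the COL8A1 ones. CCNF, an F-box cyclin, and CDCA3, which triggers degradation of WEE1, had log2 fold changes of -0.091 and 0.061.

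At centromeres and kinetochores, the largest fitted difference was that of CENPA, the histone H3 variant that marks the centromere. It had 26.0 and 54.0 CPM in COL8A1 libraries, against 25.6 and 25.4 CPM in NC libraries. COL8A1 replicate 2 stood alone and COL8A1 replicate 1 barely exceeded the NC libraries, so its log2 fold change of 0.65 (SE 0.357, edgeR adjusted p = 0.835) was 0.021 without COL8A1 replicate 2 and 1.08 without COL8A1 replicate 1. CENPA shares 138 exon bases on the same strand with SLC35F6, which had 1857 and 1624 reads in COL8A1 and 1742 and 1957 reads in NC. Whether reads of SLC35F6 were counted for CENPA, or the reverse, was not tested. CENPF, a large kinetochore protein of G2, had the most CPM of the group, 858 and 844 CPM in COL8A1 and 825 and 833 CPM in NC (log2 fold change 0.038, SE 0.0473, edgeR adjusted p = 0.906), a narrow gap without overlap. SPC25, of the microtubule-binding NDC80 complex, had 27.2 and 25.5 CPM in COL8A1 and 28.1 and 30.5 CPM in NC (log2 fold change -0.15, SE 0.105, edgeR adjusted p = 0.852). Its partners NDC80 and NUF2 had -0.018 and -0.069 with overlapping groups, and the motor CENPE had -0.039.

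The spindle genes held 3 of the 5 members with the smallest p. TPX2, which nucleates microtubules near chromosomes and activates AURKA, had 370.3 and 400.1 CPM in COL8A1 and 439 and 423 CPM in NC libraries. Its means of 385 ± 21.1 and 431 ± 11.03 CPM (SD, n = 2 each) gave a log2 fold change of -0.16 (SE 0.0658, 95% interval -0.33 to 0.011, edgeR adjusted p = 0.816), and the groups did not overlap. CKAP2L, a spindle protein of mitotic cells, had 101 and 88.7 CPM in COL8A1 and 119.6 and 107 CPM in NC (log2 fold change -0.25, SE 0.106, edgeR adjusted p = 0.817), again without overlap. CKAP2, a microtubule stabiliser, had 141 and 90.4 CPM in COL8A1 and 159 and 156 CPM in NC (log2 fold change -0.44, SE 0.218, edgeR adjusted p = 0.835, DESeq2 adjusted p = 0.941). Most of that difference lay in COL8A1 replicate 2, and the log2 fold change was -0.16 without that library.

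CKAP5, a microtubule polymerase and the spindle gene with the most CPM, had 510.5 and 586 CPM in COL8A1 and 548 and 547 CPM in NC (log2 fold change 0.00046, SE 0.0817, edgeR adjusted p = 1.00), the COL8A1 libraries lying on both sides of the NC ones. The remaining spindle genes, TACC3, NUSAP1, HMMR, DLGAP5, GTSE1 and PSRC1, had log2 fold changes from -0.11 (DLGAP5) to 0.039 (PSRC1). Of these only NUSAP1, at 277 CPM in both COL8A1 libraries and 288 and 291 CPM in NC, had groups that did not overlap. The counts of NUSAP1 are uncertain, as 1787 of its exon bases are shared on the same strand with ENSG00000285920. That gene had 54 and 0 reads in COL8A1 and 0 and 29 reads in NC libraries.

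For cytokinesis, ANLN (anillin), which organises the contractile ring, had 518 and 574 CPM in COL8A1 and 524 and 488 CPM in NC (log2 fold change 0.11, SE 0.0772, edgeR adjusted p = 0.852), with overlap. ECT2, the exchange factor that activates RhoA at the cleavage plane, had 344 and 383 CPM in COL8A1 and 397 and 389.8 CPM in NC (log2 fold change -0.11, SE 0.0737, edgeR adjusted p = 0.852), without overlap. PRC1, the midzone bundler, had 233 and 251.05 CPM in COL8A1 and 236 and 231 CPM in NC. Its counts are uncertain, as 3181 of its exon bases are shared on the same strand with ENSG00000284946.

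The 4 genes of chromosome structure had the narrowest spread within groups of the role groups with more than 1 gene. TOP2A had 1472 and 1447 CPM in COL8A1 and 1488 and 1448 CPM in NC (log2 fold change -0.0084, SE 0.0456, edgeR adjusted p = 0.987). MKI67, whose protein Ki-67 coats mitotic chromosomes and is the standard proliferation marker, had 1024 and 1032 CPM in COL8A1 and 1034 and 1028 CPM in NC, with a log2 fold change of -0.0048. The condensin subunits NCAPD2 and SMC4 had -0.021 and -0.018. Across the 4 genes the 2 libraries of a group were never more than 1.03-fold apart.

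FOXM1, the forkhead factor that drives many of these genes, had 277 and 287 CPM in COL8A1 libraries, against 386 and 260.5 CPM in NC libraries (log2 fold change -0.20, SE 0.195, edgeR adjusted p = 0.886). NC replicate 1 alone was high, and without it the log2 fold change was 0.11. The FOXM1 exons overlap 781 bases of ITFG2 on the opposite strand, and ITFG2 had 531 and 504 reads in COL8A1 and 642 and 489 reads in NC, also highest in NC replicate 1. Whether reads of one were counted for the other was not tested.

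A total of 4 members, AURKA, CENPA, CKAP2 and BIRC5, were thus at least 1.5-fold apart between the 2 libraries of a group (8.51% of members, against 9.04% of well-counted genes), with FOXM1 just inside that limit at 1.48-fold and PTTG1 next at 1.27-fold. Over all genes tested the share was 30%. The well-counted genes are those at or above the lowest member's mean CPM, and they were not matched to the members' levels. AURKA, CKAP2 and BIRC5 share no exon bases with another counted gene, while 17 of the 47 members do. The 2 NC libraries differed over the members by a median absolute log2 difference of 0.039, against 0.093 over well-counted genes.

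**Figure D5:**
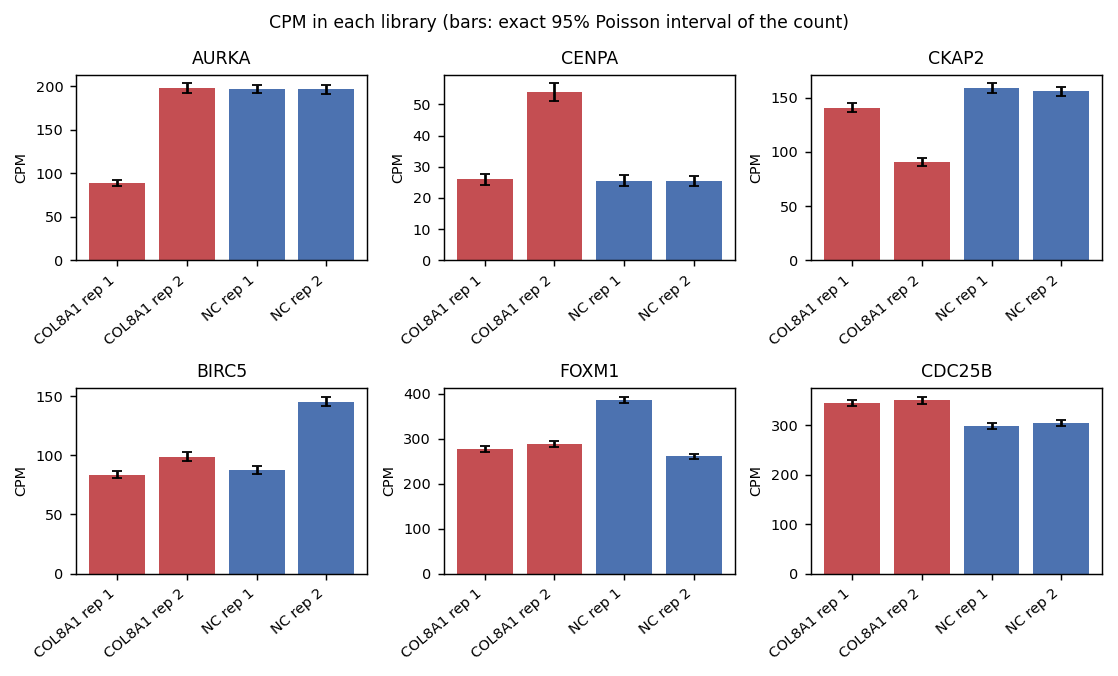
CPM of AURKA, CENPA, CKAP2, BIRC5, FOXM1 and CDC25B in each library (red COL8A1, blue NC), with the exact 95% Poisson interval of the count. In the first 5 genes 1 library stands away from the other 3, while in CDC25B both COL8A1 libraries, at 344 and 350.3 CPM, are above both NC libraries, at 298 and 304 CPM.

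Genes of the same pathways outside the set were read from 6 lists. Over all genes tested, 49.8% had a log2 fold change below 0, and 52% of the well-counted ones did. Of 12 mitotic kinesins, 9 had a log2 fold change below 0 and 3 above, with a median of -0.026. KIF18B, at 118 and 126 CPM in COL8A1 and 117 and 116 CPM in NC, and KIF18A, at 59.0 and 63.3 CPM in COL8A1 and 62.4 and 65.5 CPM in NC, had the smallest p of these motors. Of 15 subunits of the anaphase-promoting complex, 6 were below 0 and 9 above, with a median of 0.062, and ANAPC11, its RING subunit, had 102 and 107 CPM in COL8A1 and 82.8 and 82.7 CPM in NC (log2 fold change 0.34, SE 0.0729, edgeR adjusted p = 0.58). Its subunit ANAPC13 had 32.3 and 18.4 CPM in COL8A1 and 15.6 and 17.8 CPM in NC, high in COL8A1 replicate 1. Of 39 further mitosis genes, 27 were below 0 and 12 above, with a median of -0.045.

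SKA1, a kinetochore protein that couples chromosomes to microtubules, had the smallest p among these, at 5.88 and 6.91 CPM in COL8A1 and 16.8 and 15.04 CPM in NC (log2 fold change -1.31, SE 0.163). Both COL8A1 libraries were below both NC libraries, with an adjusted p of 0.273 by edgeR and of 3.2e-05 by DESeq2. It was the only gene of the 6 lists past an adjusted p of 0.05 by DESeq2, where 0.822% of all genes tested were.

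Of 31 genes of G1/S and replication, 13 were below 0 and 18 above, with a median of 0.049, and MCM2, a subunit of the replicative helicase, had 208 and 197 CPM in COL8A1 and 171 and 162 CPM in NC (log2 fold change 0.28, SE 0.0702, edgeR adjusted p = 0.653). Of 18 genes for DREAM, B-MYB and NF-Y, 8 were below 0 and 10 above, with a median of 0.028; the repressor E2F4 had 65.8 and 66.0 CPM in COL8A1 and 47.2 and 53.3 CPM in NC (log2 fold change 0.39, SE 0.0995, edgeR adjusted p = 0.662), and RBBP4, a MuvB subunit, had 245 and 203 CPM in COL8A1 and 179 and 173 CPM in NC. Of 18 CDK inhibitors and p53 targets that could be tested, 7 were below 0 and 11 above, with a median of 0.074, TP53INP1 having 35.7 and 32.8 CPM in COL8A1 and 21.8 and 25.1 CPM in NC (log2 fold change 0.55, SE 0.12, edgeR adjusted p = 0.582). MDM2, the ubiquitin ligase of p53, had 154 and 161 CPM in COL8A1 and 136 and 139 CPM in NC. In these 6 lists edgeR called 0 genes past an adjusted p of 0.05, against 0.0117% of all genes tested. At an unadjusted p under 0.05 it called 0 kinesins and 1 gene each of the anaphase-promoting complex, the further mitosis genes and the G1/S genes. In each of the other lists it called 1 lower and 2 higher. Over all genes tested the unadjusted share was 6.07% (3.44% higher and 2.63% lower).

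Set against the promoters, members with a CHR-type match had a median log2 fold change of -0.018 and the 8 matched members without one -0.028. CDC25B and CENPA, which carry both kinds of letters, lay above 0, and CCNB2 and PLK1, which carry them too, below 0.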

How the data were processed

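Gene counts of 4 libraries were analysed. The authors deposited unnormalized counts, per the file header and values. The submitters' processing notes list HISAT2 2.2.1, Trim Galore 0.6.9, featureCounts (under 0.3) and the genome hg38. Strand setting and annotation release were not stated there, so reads of overlapping genes cannot be told apart. PCR copies count as separate reads, and the Poisson intervals of single libraries cover counting error only. Groups and replicate numbers came from the sample titles.

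Counts were tested in R 4.3.3 with edgeR 4.0.16 (filterByExpr, TMM scaling, quasi-likelihood F-test, group as the only term) over 17030 genes, with Benjamini-Hochberg adjustment over all of them; 1 line that names no gene was left out. Residual degrees of freedom were 2 and prior ones 2.64. SE is the log2 fold change over the root of F, and 95% intervals use the test's degrees of freedom. DESeq2 1.42.0 was an alternative. The scripts were tested on simulated data. Because separate cultures are not stated, p-values reflect library-to-library spread alone, possibly technical. Replicates differed beyond counting noise (chi-square per gene 33.8 in COL8A1 and 31.1 in NC). The labels give no batch.

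Coordinates and exon lengths came from GENCODE release 29, which may differ from the annotation used for counting, and promoter windows from RefSeq. Of the markers of other cell types, 1 beyond the 12 given is not reported here. The members and gene lists were chosen with earlier results of these data known. Values per library are given for the 12 members with the smallest edgeR p, members at least 1.5-fold apart within a group, the member with the most CPM of each role and the 2 genes of smallest p of each list; any other library values were chosen after they were seen. Other settings tried were RLE and library size scaling, COL8A1 left out before scaling, no filter or 1 CPM in 2 libraries, a replicate block, DESeq2 and leaving out each library.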

Additional observations from a re-analysis of the deposited data

How the results depend on the processing

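No member passed an adjusted p of 0.05 in any setting of edgeR or DESeq2, and the lowest was 0.171 (AURKA without COL8A1 replicate 2). The number past an unadjusted p of 0.05, 2 in the test reported, was 1 with library size alone, 3 with no low-count filter and 1 to 5 when 1 library was left out (1 without NC replicate 1 or NC replicate 2, 4 without COL8A1 replicate 1, 5 without COL8A1 replicate 2). Over all genes tested, the differences between replicates 1 and 2 of NC and of COL8A1 had a correlation of -0.036. A single value over all genes cannot show whether the libraries were paired. With the number as a replicate block 2 members passed an unadjusted p of 0.05, 36 were below 0 and the median log2 fold change was -0.036. Leaving out 1 library gave medians from -0.11 (without COL8A1 replicate 2) to -0.021 (without COL8A1 replicate 1) and a difference in summed CPM (-276 with all 4) from -569 (without COL8A1 replicate 2) to -13.4 (without COL8A1 replicate 1).

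Leaving out 1 library turned the sign of the log2 fold change in 23 of the 47 members, some under more than 1 omission (2 without NC replicate 1, 7 without NC replicate 2, 13 without COL8A1 replicate 1 and 7 without COL8A1 replicate 2), and 24 members kept it. PTTG1 ran from -0.18 to 0.16 and CCNB1 from -0.21 to 0.082. Among the members described by library, ranges were -0.67 to 0.062 for BIRC5 (highest without NC replicate 2), -1.15 to 0.011 for AURKA, -0.16 to 0.024 for CDC20 and -0.068 to 0.036 for BUB3 (highest without COL8A1 replicate 1), -0.46 to 0.11 for FOXM1 and -0.031 to 0.010 for TOP2A (highest without NC replicate 1; TOP2A 0.00013 without COL8A1 replicate 2), and -0.13 to 0.0060 for INCENP (highest without NC replicate 2). CKAP5, near 0, was 0.096 without COL8A1 replicate 1 and turned to -0.0013 with RLE scaling, -0.0037 with no filter, -0.0029 with the replicate block, -0.0026 with DESeq2, -0.0044 without NC replicate 2 and -0.11 without COL8A1 replicate 2. The cause was not tested. COL8A1 itself passed the threshold with no filter (5.44), with DESeq2 (5.45) and without COL8A1 replicate 2 (5.77), and SKA1 with DESeq2 (-1.32). For the genes named by rule, the other 366 values kept their direction and side of the threshold. Of the summary values, the count at an unadjusted p of 0.05 moved past its limit with library size alone and without each library in turn. The median log2 fold change and the summed CPM did so without COL8A1 replicate 2, and the remaining summary values stayed inside the limits set. With 2 libraries a group, 2 residual degrees of freedom limit every test, and low counts, as in CDC25C, add counting error.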

Other observations

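Processed copies of the members were barely counted. CDC20P1 had 114 and 80 reads in COL8A1 and 153 and 150 reads in NC libraries, and AURKAP1 had 5 and 13 reads in COL8A1 and 18 and 10 reads in NC. AURKAP1 was thus lowest in COL8A1 replicate 1, as AURKA was, at a count too small to compare. ZWILCH, a kinetochore gene of the checkpoint, had 83.8 and 93.9 CPM in COL8A1 and 99.1 and 135 CPM in NC, high in NC replicate 2 as BIRC5 was. CDC25A, the G1/S relative of CDC25B, had 38.0 and 53.1 CPM in COL8A1 and 62.6 and 56.3 CPM in NC, without overlap and opposite in direction to CDC25B.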
